A study of Mus musculus with 54 samples.

Results

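Microglia loaded with alpha-synuclein (aSyn) were compared with microglia that had received none, in the 6 libraries labelled 0 min of a mouse co-culture series of 54 libraries. The libraries were chosen by their titles: 3 of donor cells and 3 of acceptor cells, numbered 1, 2 and 3 in each group. All were primary microglia of C57BL/6 mice, prepared from neonatal brains, the cells of 2 brains pooled in a flask, and shaken off the astrocytes they had grown on in medium with serum and L929 supernatant. Donors were seeded at about 10000000 per petri dish and received 1 µM aSyn carrying the fluorescent dye Atto-488 for 14 h. Acceptors were seeded at about 2000000 per T25 flask, received no aSyn and were stained for 15 min with CellTracer Violet. Numbers 1, 2 and 3 stand for passages 3, 1 and 2 in the labels. The labels do not say whether the libraries came from separate animals, so the spread behind the p-values may be technical. That spread was estimated over all 14 groups of the series, not from these 6 libraries alone. The later groups of the series were mixed for 15 to 300 min and sorted apart again, and what was done with the cells labelled 0 min is not described further in the labels. The aSyn, the vessel and its density, and the 2 dyes all differ between donors and acceptors, so their effects cannot be told apart in this comparison. A separate pair of groups, aSyn_Donor with 4 libraries and Untreated_Ctrl with 6, gives aSyn exposure without co-culture. A seeding number is known here for aSyn_Donor but not for Untreated_Ctrl, so vessel and density may differ between these groups as well.

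Microglia are the resident macrophages of the brain. They clear aSyn, a neuronal protein whose aggregates define Parkinson disease, and pattern-recognition receptors on their surface can answer it through NF-kB, which switches on cytokine and chemokine genes. A macrophage with such a load can also engage the integrated stress response, in which the factor ATF4 induces amino acid transport and synthesis genes, and the NRF2 response, which induces glutathione and antioxidant genes.

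The edgeR quasi-likelihood test with the replicate number as a block called 564 of 13169 genes between donors and acceptors, 4.28% of those tested, at a Benjamini-Hochberg adjusted p under 0.05. Donors were higher in 353 of them (2.68%) and lower in 211 (1.60%), and 2423 genes had an unadjusted p under 0.05. The called genes among inflammatory effectors (12 of 28 tested), chemokines (6 of 22), immediate early genes (12 of 40) and genes of the endoplasmic reticulum (ER) and integrated stress responses (12 of 38) were all higher in donors. Of 18 integrins and adhesion receptors 4 were called higher and 1 lower, and the called genes of the DNA replication (4 of 50) and mitosis (1 of 39) lists were lower. Some lists share genes, such as Ppp1r15a, Slc7a11 and Mmp9, so the same call can count in more than 1 list. More of the called genes rose than fell by over 2-fold: 166 called genes had a log2 fold change above 1 and 73 one below -1, with a median of -0.02 over all tested genes. In 560 of the 564 genes the direction was the same in all 3 same-numbered pairs. The donor and acceptor libraries did not overlap in 492 of the 564, against 16.8% of all tested genes. The same libraries and pairing chose the 564 genes, which favours both counts, so neither is separate support. Where a called gene below is said not to overlap between groups, that is the usual case. A fit without the block called 33 genes, 25 of them higher and 8 lower, and all were among the 564. In that fit 985 of the 13169 genes had an unadjusted p under 0.05.

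**Figure D1:**
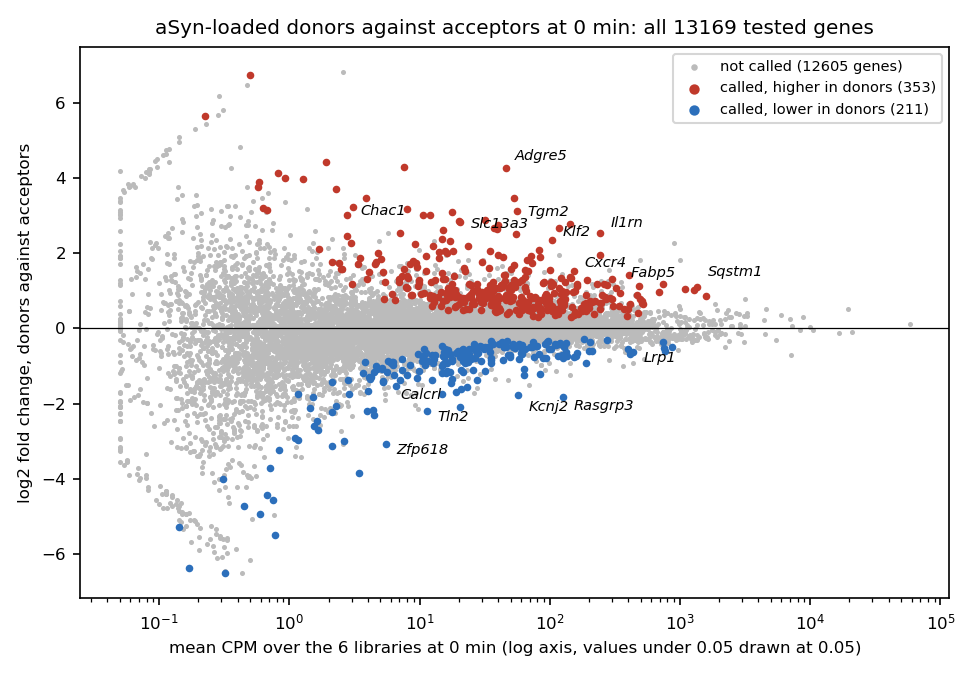
Log2 fold change between donors and acceptors at 0 min (vertical axis, donor minus acceptor) against mean level (horizontal axis, mean CPM on a log scale). Points are the 13169 tested genes, with very low means drawn at a set minimum. Coloured points are the 564 called genes, 353 higher and 211 lower in donors, and the labelled rises reach further from 0 than the labelled falls.

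Promoters of called genes are shown here because some members of the inflammatory and stress groups hold short motifs named for the factors of those pathways. The promoters shown were picked among those with a match, and whether these factors acted on the genes was not tested. The sequences are from RefSeq, build GRCm38.p6, from windows of 250 bases before to 50 after each annotated start, and 10420 of 13169 tested genes had such a window. Capitals mark the NF-kB motif, searched as GGNNTTTCC or GGNNTTCCC on both strands, in stretches of the genes for 3 chemokines and for Acod1, the enzyme that makes itaconate. The windows lie at chr5:90903763-90903870 on the plus strand for Cxcl2, chr5:90785989-90786077 on the plus strand for Cxcl3, chr5:92348943-92349087 on the minus strand for Cxcl10 and chr14:103046887-103046975 on the plus strand for Acod1.
Cxcl2: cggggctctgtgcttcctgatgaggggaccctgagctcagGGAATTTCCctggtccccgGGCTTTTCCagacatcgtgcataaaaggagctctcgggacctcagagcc
Cxcl3: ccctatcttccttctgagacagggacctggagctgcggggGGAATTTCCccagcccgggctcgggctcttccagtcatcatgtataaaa
Cxcl10: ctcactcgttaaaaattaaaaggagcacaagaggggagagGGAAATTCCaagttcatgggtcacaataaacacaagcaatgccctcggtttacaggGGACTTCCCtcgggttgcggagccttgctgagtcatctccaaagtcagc
Acod1: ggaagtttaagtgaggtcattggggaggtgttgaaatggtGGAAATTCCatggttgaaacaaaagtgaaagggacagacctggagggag

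Of the 14 genes with a window that were called higher in the cytokine, chemokine and effector lists, 8 held the NF-kB motif: Acod1, Csf1, Cxcl10, Cxcl2, Cxcl3, Il1rn, Marco and Vegfa. It was present in 14.5% of all tested genes with a window, in 16.6% of those called higher and in 13.6% of those called lower, so the share over all called genes lay near that of the whole table. The AP-1 motif, TGANTCA, was present in 6.39% of all genes with a window, in 13.1% of those called higher and in 4.73% of those called lower. The antioxidant response element, searched as TGACNNNGC, was present in 16.8%, 19.8% and 13.02%, and an AP-1 match can lie inside one of its matches. Of the 4 genes with a window that were called higher in the list of NRF2 and its antioxidant targets, 0 held this element, through which NRF2 is known to act. These shares describe letters in a window and were not tested.

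The other pair of promoters holds the amino acid response element, TGATGNAA or its reverse complement, at which ATF4 is known to bind. This motif was added after the values had been seen. Chac1, which degrades glutathione, is shown at chr2:119351009-119351096 on the plus strand, and Slc7a11, the cystine importer, at chr3:50443614-50443719 on the minus strand.
Chac1: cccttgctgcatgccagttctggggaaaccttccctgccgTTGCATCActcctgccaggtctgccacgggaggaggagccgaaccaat
Slc7a11: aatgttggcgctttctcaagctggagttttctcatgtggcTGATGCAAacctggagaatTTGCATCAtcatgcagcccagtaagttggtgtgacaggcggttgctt

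Of 10 called stress response genes with a window, 4 held this element: Chac1, Herpud1, Slc7a11 and Trib3. The share was 2.81% over all tested genes with a window, 7.07% in those called higher and 1.78% in those called lower.

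The 6 libraries held between 8702881 and 15029452 counts and between 13495 and 13872 detected genes, and the ribosomal RNA precursor Rn45s took 2.75 to 8.50% of their counts. Levels are given as CPM (counts scaled to 1000000 in a library's TMM-scaled total), and 3 counts, used as the floor, correspond to 0.194 to 0.323 CPM. The cells carried microglial RNA in both groups: the 10 microglia markers, among them Csf1r and C1qa, summed to 5395 to 6705 CPM in donors and 5481 to 7042 CPM in acceptors. The classical marker Tmem119 was low in both, at 5.78, 6.27 and 12.7 CPM in donors and 5.17, 2.66 and 4.64 CPM in acceptors, and P2ry12 was between 4.16 and 9.63 CPM. Acceptor library 3 stood apart in markers of other brain cells. The 13 measured astrocyte markers summed to 39.4 CPM there, against 13.9 to 15.7 CPM in the other acceptors and 9.12 to 15.2 CPM in donors, and the astrocyte genes Gfap and Aqp4 reached 0.478 and 1.64 CPM. The astrocyte genes Gja1 and Aldh1l1 were not highest in that library. The 10 measured neuron markers summed to 19.8 CPM there and to at most 3.16 CPM in the other 5. Map2 made up most of that neuron sum, at 13.03 CPM there and at most 1.94 CPM elsewhere. Rbfox3, Stmn2, Gad1 and Slc17a7 were not highest in that library. Oligodendrocyte lineage markers summed to 318 CPM there, against 158 to 214 CPM elsewhere. The largest part of that sum, Mbp, was at 111 CPM there and at most 109 CPM elsewhere. Other members stood further apart: Olig1 was at 47.8 CPM there (at most 5.25 CPM elsewhere) and Olig2 at 46.4 CPM (at most 4.24 CPM). Pdgfra was at 17.6 CPM (at most 1.725 CPM) and Sox10 at 9.82 CPM (at most 0.97 CPM). Cspg4, Mog, Mag, Cnp and Enpp6 were not highest in that library. Fibroblast markers (2.46 to 39.1 CPM over the 6 libraries), neutrophil and monocyte markers (0.819 to 4.99 CPM) and lymphocyte markers (0.431 to 2.45 CPM) were low in each. Endothelial markers summed to 69.3 to 91.1 CPM in donors and 49.1 to 61.2 CPM in acceptors, and markers of border-associated macrophages to 856 to 955 and 582 to 910 CPM. The part of these cells in the results below was not tested, and fewer cells of a type cannot be told apart from less RNA per cell in such bulk libraries. Because acceptor library 3 stood apart, counts are also given without it: 242 genes were called then, 172 higher and 70 lower.

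**Figure D2:**
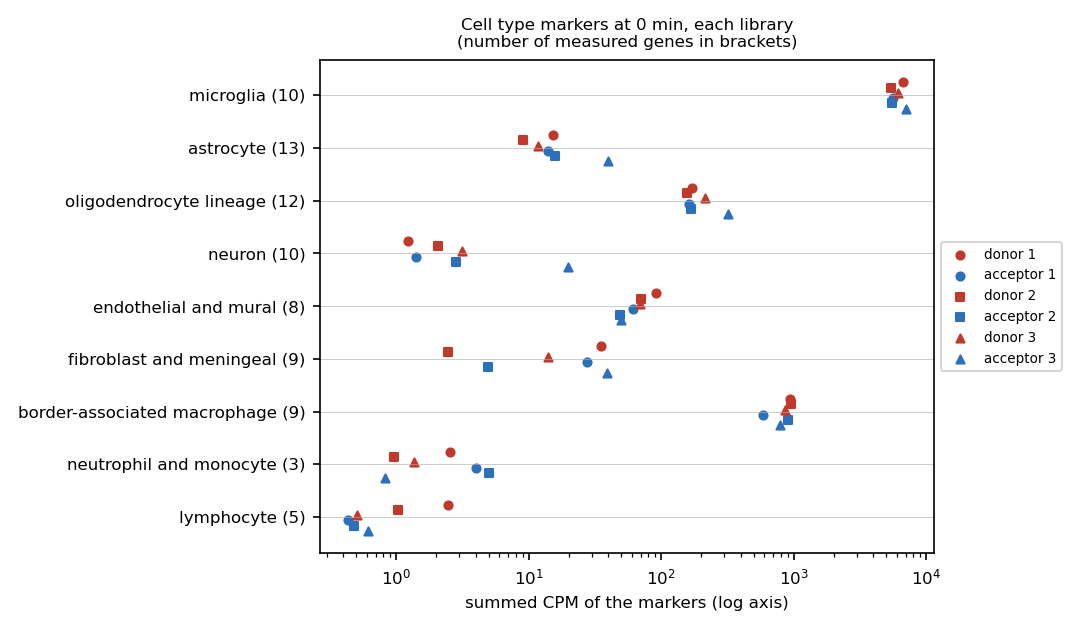
Summed level of each list of cell type markers (CPM, log axis) in the 3 donor and 3 acceptor libraries, with the symbol giving the replicate number. Microglia markers lie between 5395 and 7042 CPM in all 6, and acceptor library 3 is the highest library for astrocyte, neuron and oligodendrocyte lineage markers.

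Adgre5 (ENSMUSG00000002885, chr8:83723251-83741326 on the minus strand of mm10) encodes CD97, an adhesion G protein-coupled receptor of leukocytes. Its level was 92.2, 78.4 and 92.3 CPM in donors and 3.88, 3.22 and 6.82 CPM in acceptors. Every donor library was above every acceptor library by a wide margin, and the difference was 4.27 on the log2 scale, or 19.3-fold (SE 0.22, edgeR adjusted p = 3.3e-18). The log2 fold change stayed between 4.15 and 4.58 under the 10 alternative settings, with adjusted p-values from 7.7e-78 to 0.00036. The gene overlaps Ddx39 on the opposite strand, and whether the authors counted by strand is not given in the sources used here. Ddx39 itself was at 44.8, 58.4 and 61.2 CPM in donors and 40.2, 37.6 and 58.9 CPM in acceptors and was not called (adjusted p = 0.447). Adgre5 was among the largest rises of the genes taken by the naming rule, which asked for a mean of at least 5 CPM and the same direction in the 3 pairs.

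The other large rises differed more between experiments. H2-M2, a non-classical class I histocompatibility gene, was at 35.5, 43.7 and 197 CPM in donors and 2.15, 1.53 and 37.4 CPM in acceptors, so that donor library 1 lay just below acceptor library 3 while each donor exceeded its own-numbered acceptor. H2-M2 rose by 3.46 on the log2 scale with an SE of 0.56 (edgeR adjusted p = 0.00014, and 0.688 without the block). Mmp14, a membrane-bound matrix metalloproteinase, also overlapped between groups, with 35.6, 17.6 and 104 CPM against 4.09, 1.37 and 27.5 CPM (log2 fold change 2.87, SE 0.64, adjusted p = 0.0048, and 0.812 without the block). In both genes number 3 was the highest library of each group. Tgm2, the cross-linking enzyme transglutaminase 2, was at 55.9, 79.3 and 168 CPM against 7.22, 10.6 and 15.4 CPM, with no overlap (log2 fold change 3.11, SE 0.43, adjusted p = 1.1e-05). Tgm2 overlaps Rprd1b, which was not called (adjusted p = 0.321). Slc13a3, a sodium-coupled dicarboxylate transporter, was at 19.1, 31.4 and 57.1 CPM against 4.63, 2.42 and 8.26 CPM (log2 fold change 2.83, SE 0.30, adjusted p = 6.9e-08). Bcl2a1a, an anti-apoptotic BCL2 family member, rose by 2.86 (SE 0.56, adjusted p = 0.0016), and this gene has near-identical copies, Bcl2a1b and Bcl2a1d, between which reads may be divided. Thbs1, the matrix protein thrombospondin 1, rose by 3.18 (SE 0.65, adjusted p = 0.0022), from 2.26, 1.21 and 1.02 to 8.14, 9.63 and 26.2 CPM, and was not called without acceptor library 3 (2.49, adjusted p = 0.0638).

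**Figure D3:**
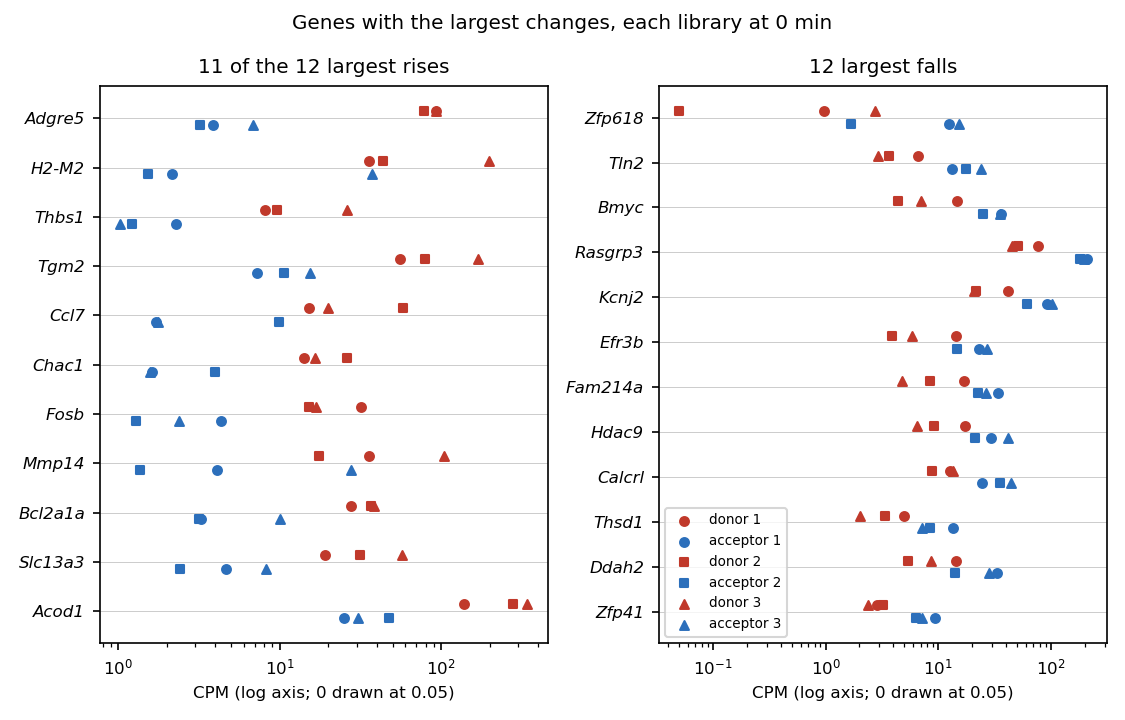
Level of 11 of the 12 genes with the largest rise and of the 12 with the largest fall in each of the 6 libraries (CPM, log axis, 0 drawn at 0.05; donors red, acceptors blue, symbols give the replicate number). Adgre5 shows a wide gap between donors and acceptors, whereas the donor and acceptor libraries of H2-M2 and Mmp14 overlap, with number 3 the highest of each group.

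Among 97 called genes that the rule named, 12 were called under all 10 alternatives, among them Acp5, Adgre5, Cd44, Chac1, Cxcr4, Herpud1, Itga9, Klf2, Klf4, Nr1h3 and Slc13a3. Leaving aside the fit without the block, 27 were called under the other 9, adding Bcl2a1a, Calcrl, Csf1, Fabp5, H2-M2, Pla2g7, Sgk1, Slc11a1, Slc7a11, Sqstm1, Syk, Tgm2, Trib3, Tsc22d3 and Zfp618. The other genes named by the rule lost their call under at least 1 of these 9, most often when a pair of libraries or acceptor library 3 was left out. Further genes, among them every gene named below that was not called, were added after their values had been seen.

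Chemokine genes that passed the test were all higher in donors. Of 22 tested chemokines, 6 were called, all higher, against 2.68% of all tested genes: Ccl7, Ccl8, Ccl24, Cxcl2, Cxcl3 and Cxcl10. The list's median log2 fold change was 1.51, with 20 of 22 values positive. Cxcl2, which recruits neutrophils, was at 418, 435 and 307 CPM in donors and 95.9, 107 and 96.8 CPM in acceptors (log2 fold change 1.96, SE 0.51, edgeR adjusted p = 0.0187). The libraries of each group lay close together and did not overlap. Its neighbour Cxcl3 was at 7.35, 5.75 and 8.27 CPM against 1.08, 0.725 and 0.273 CPM (3.47, SE 0.78, adjusted p = 0.0054). The monocyte attractant Ccl7 was at 15.1, 58.2 and 19.8 CPM against 1.72, 9.83 and 1.77 CPM (3.09, SE 0.75, adjusted p = 0.0104), with library 2 the highest of both groups. Ccl8 was at 23.5, 117 and 63.5 CPM against 5.71, 19.8 and 6.41 CPM (2.64, SE 0.64, adjusted p = 0.0106). The 2 chemokines with negative values, Ccl3 (log2 fold change -0.93, adjusted p = 0.0895) and Ccl4 (-0.84, adjusted p = 0.149), were not called. The chemokine calls rested on all 6 libraries: 0 were called without acceptor library 3, 0 without the block and 0 to 2 when a pair was left out, although the median without acceptor library 3 was 1.57. Lower calls appeared with DESeq2 (1, beside 6 higher), with only the groups compared (2, beside 9) and with the library batch of number 4 left out of all groups (1, beside 13).

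Of 17 tested cytokines and growth factors, 4 were called higher (23.5%, against 2.68% of all tested genes) and 0 lower, with a median of 0.68. Il1b, the central pro-inflammatory cytokine of myeloid cells, was at 114, 290 and 220 CPM in donors and 28.8, 40.3 and 15.97 CPM in acceptors (log2 fold change 2.68, SE 0.68, edgeR adjusted p = 0.0158). Il1rn, the antagonist of its receptor, was at 384, 396 and 449 CPM against 61.6, 106 and 55.1 CPM (2.53, SE 0.60, adjusted p = 0.0092). An agonist and its antagonist were thus higher in every donor library than in any acceptor library. Csf1, the growth factor of microglia, rose by 1.92 (SE 0.30, adjusted p = 9.3e-05), from 3.99, 7.65 and 2.05 to 8.93, 33.4 and 11.6 CPM. Vegfa, an angiogenic factor, rose by 2.61 (SE 0.78, adjusted p = 0.0439). Tnf did not differ beyond the spread, at 23.6, 47.7 and 31.1 CPM against 35.7, 32.3 and 48.9 CPM (-0.23, SE 0.37, adjusted p = 0.799), and Il6 had at most 0.517 CPM in any of the 6. Csf1 alone of the list was called without acceptor library 3; the adjusted p was then 0.133 for Il1b, 0.083 for Il1rn and 0.236 for Vegfa.

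Effector genes formed the list with the largest share of calls. Of 28 inflammatory effectors and acute phase genes, 12 were called higher and 0 lower (42.9%, against 2.68% of all genes called higher), all 28 values were positive and the median was 1.42. The called genes included Nos2, Lcn2, Acod1, Cd86, Vcam1, Marco, Mmp9, Mmp14, Plaur, Ninj1 and Thbs1. Acod1 was at 138, 277 and 342 CPM in donors and 25.1, 47.5 and 30.6 CPM in acceptors (log2 fold change 2.78, SE 0.62, edgeR adjusted p = 0.0049). Marco, a scavenger receptor for particles and bacteria, was at 13.2, 5.75 and 184 CPM against 1.40, 0.725 and 34.4 CPM (2.74, SE 0.58, adjusted p = 0.0030), and Mmp9, a secreted gelatinase, at 65.6, 17.6 and 227.6 CPM against 8.83, 4.27 and 110 CPM (1.93, SE 0.42, adjusted p = 0.0037). Both were highest in library 3 of each group, and each donor exceeded its own-numbered acceptor while the groups overlapped. Without acceptor library 3, 6 of the effectors were called, and 5 when any pair was left out. Acod1 was not called without acceptor library 3 (2.49, adjusted p = 0.0599), and 1 effector was called without the block.

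The called shares of the lists of sensors and intracellular regulators, 4.55 to 7.14%, lay near the 4.28% of all tested genes. Of 21 Toll-like receptors and adaptors, the adaptor gene Ticam2 was called higher (0.80, SE 0.21, edgeR adjusted p = 0.0192), which overlaps the neighbouring Tmed7 on the same strand. Tlr2 was at 136, 82.4 and 202 CPM against 80.8, 45.7 and 92.5 CPM (0.90, adjusted p = 0.057), and Tlr4 at 128, 152 and 125 CPM against 127, 151 and 104 CPM (0.09, adjusted p = 0.791). Of 20 NF-kB subunits and inhibitors the kinase gene Ikbke was called, with 57.1, 88.0 and 64.9 CPM against 17.3, 47.5 and 34.2 CPM (1.17, SE 0.26, adjusted p = 0.0050), and 15 of 20 values were positive with a median of 0.40. Nfkbia, the inhibitor that NF-kB itself induces, was not called (0.27, SE 0.23, adjusted p = 0.583). Of 14 inflammasome genes the caspase gene Casp4 was called, at 78.7, 91.2 and 74.3 CPM against 32.1, 41.7 and 30.6 CPM (1.23, SE 0.28, adjusted p = 0.0055). Among 30 SOCS, STAT and IRF regulators, the feedback inhibitor Socs3 rose by 2.00 (SE 0.53, adjusted p = 0.0209) and the interferon-gamma receptor chain Ifngr1 fell by 0.66 (SE 0.19, adjusted p = 0.0362). Tnfrsf1b, which encodes TNF receptor 2, was the called member of 22 TNF receptor family genes, at 1024, 1136 and 926 CPM against 390, 379 and 586 CPM (1.19, SE 0.26, adjusted p = 0.0050). In the fit without acceptor library 3, Casp4 (adjusted p = 0.0538), Socs3 (0.137) and Ifngr1 (0.142) were not called, and Ticam2, Ikbke and Tnfrsf1b were.

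Receptors for chemoattractants were called in 3 of 17 cases, all higher (17.6%, against 2.68% of all tested genes). Cxcr4, the receptor of CXCL12, was at 236.4, 252.6 and 195.0 CPM in donors and 98.6, 60.2 and 79.9 CPM in acceptors (log2 fold change 1.52, SE 0.25, edgeR adjusted p = 0.00022). Cmklr1, the chemerin receptor, was at 89.4, 88.4 and 121 CPM against 20.8, 40.6 and 48.6 CPM (1.52, SE 0.35, adjusted p = 0.0071), and Ccr1 at 7.53, 4.14 and 12.7 CPM against 2.69, 2.34 and 1.09 CPM (1.86, SE 0.45, adjusted p = 0.0097). In all 3 genes the donor and acceptor libraries did not overlap. Ccr1 was not called without acceptor library 3 (1.33, adjusted p = 0.149). The list's median was 0.19, with 11 of 17 values positive.

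The interferon-stimulated genes were positive in all 42 tested members, with a median log2 fold change of 0.77, yet edgeR called 0 of them. Of the 42, 17 had an unadjusted p under 0.05, and DESeq2 called 1. The pairs differed: the list's median was 1.16 in pair 1, -0.07 in pair 2 and 1.41 in pair 3. Ifit1, an antiviral RNA-binding protein, was at 284, 296 and 403 CPM in donors and 82.8, 336 and 84.9 CPM in acceptors, and Irf7, an interferon regulator, at 192, 657 and 272 CPM against 70.1, 591 and 62.7 CPM. Acceptor library 2 lay within the donors' range for these genes, and acceptor libraries 1 and 3 lay below it. Over the whole list the summed level was 12629 CPM in acceptor library 2, against 5097 and 4905 CPM in the other acceptors and 8931 to 12539 CPM in donors. Without pair 2 the median was 1.22 and 1 gene was called. With the library batch of number 4 left out of all groups, 20 were called, all higher. Genes of MHC class I and II presentation had 19 of 21 positive values and a median of 0.51, and edgeR and DESeq2 each called 0 of them (3 with an unadjusted p under 0.05). With only the groups compared 2 were called, and without the batch of number 4 there were 5, all higher.

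Immediate early genes respond to signalling within minutes without new protein synthesis. They were called higher in 12 of 40 cases (30%, against 2.68% of all tested genes) and lower in 0. The called genes were Fosb, Ier3, Klf2, Klf4, Klf6, Klf10, Dusp1, Sgk1, Rhob, Gadd45b, Csrnp1 and Ppp1r15a, and the list's median was 0.89. Klf2, a Krüppel-like factor known to restrain myeloid activation, was at 261.3, 104.7 and 162.1 CPM in donors and 32.9, 35.3 and 30.0 CPM in acceptors (log2 fold change 2.35, SE 0.39, edgeR adjusted p = 0.00023). Its relative Klf4 was at 41.4, 41.9 and 31.7 CPM against 14.1, 10.7 and 2.25 CPM (2.19, SE 0.37, adjusted p = 0.00024), and Fosb, a partner in AP-1, at 31.9, 15.1 and 16.7 CPM against 4.31, 1.29 and 2.39 CPM (3.01, SE 0.65, adjusted p = 0.0040). The donors of these genes did not overlap the acceptors. Other AP-1 genes gave smaller values: Fos was 0.34 (SE 0.40, adjusted p = 0.707) and Jun -0.10 (SE 0.22, adjusted p = 0.857). Without acceptor library 3 the list had 7 calls, and 5 to 7 when a pair was left out; Klf2 and Klf4 were its calls without the block. At 300 min the list's median was -0.13.

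The list of ER stress and integrated stress response genes had 34 positive values and a median of 0.48. Its genes were called higher in 12 of 38 cases (31.6%, against 2.68% of all tested genes) and lower in 0. They include the chaperone Hspa5, the ER factors Manf, Herpud1 and Xbp1, the transcription factor Atf4 and the genes Trib3, Chac1, Slc3a2, Slc7a11, Ppp1r15a, Mthfd2 and Cars. Chac1 was at 14.2, 25.9 and 16.5 CPM in donors and 1.62, 3.95 and 1.57 CPM in acceptors (log2 fold change 3.02, SE 0.35, edgeR adjusted p = 3.1e-07). Trib3, a pseudokinase that dampens the same response, was at 34.3, 102 and 34.9 CPM against 10.8, 13.9 and 11.9 CPM (2.05, SE 0.34, adjusted p = 0.00023). Herpud1, part of ER-associated degradation, was at 64.3, 90.4 and 42.7 CPM against 22.8, 27.1 and 21.6 CPM (1.42, SE 0.21, adjusted p = 4.9e-05). Library 2 was the highest donor in all 3 genes, and no donor library reached down to an acceptor. Without acceptor library 3, 9 of the list were called, and 6 or 7 when a pair was left out, and without the block Chac1 and Herpud1 were.

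NRF2 targets and antioxidant genes were called higher in 6 of 34 cases (Nqo1, Gclc, Slc7a11, Gsr, Sqstm1 and Osgin1) and lower in 0, with a median of 0.46. The share was 17.6%, against 2.68% of all tested genes called higher. Sqstm1, the cargo receptor p62 of selective autophagy, was at 1482, 2170 and 1918 CPM in donors and 860, 781 and 898 CPM in acceptors (log2 fold change 1.11, SE 0.19, edgeR adjusted p = 0.00026). Slc7a11 varied by number, with 33.0, 15.6 and 145 CPM against 6.90, 1.53 and 23.9 CPM (2.68, SE 0.44, adjusted p = 0.00021). Hmox1, the heme-degrading enzyme that NRF2 also induces, was not called (0.45, SE 0.24, adjusted p = 0.323). Slc7a11 and Sqstm1 were the 2 calls of this list without acceptor library 3; the adjusted p of Nqo1 was then 0.199 and that of Osgin1 0.0762.

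In the degradation pathways 0 to 6.25% of a list's genes were called, against 4.28% of all tested genes. Of 49 lysosomal genes the proton pump subunit Atp6v1h was called, at 0.60 (SE 0.14, edgeR adjusted p = 0.0081, and 0.0589 without acceptor library 3), and the list's median was 0.03. Among 16 cathepsins and cystatins, the aspartic protease Ctse fell by 2.12 (SE 0.61, adjusted p = 0.0378). Of 38 autophagy genes, a list that does not hold Sqstm1, 0 were called by edgeR or DESeq2 and 7 had an unadjusted p under 0.05. Leaving out the batch of number 4 gave 1 higher and 3 lower. Of 37 proteasome subunits 35 had positive values, with a median of 0.23; edgeR called 0 and DESeq2 1, and 11 had an unadjusted p under 0.05. With the batch of number 4 left out, 12 were called higher. Of 25 Parkinson disease genes the lipid transporter Vps13c was called, at 20.9, 14.8 and 18.6 CPM in donors and 32.6, 29.4 and 32.6 CPM in acceptors (-0.82, SE 0.21, adjusted p = 0.0187, and 0.0827 without acceptor library 3).

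Uptake receptors moved in both directions. Of 27 scavenger and efferocytosis receptors, Marco and the don't-eat-me signal Cd47 were called higher and the lipoprotein receptors Scarb1 and Lrp1 lower. That was 14.8% of the list, against 4.28% of all tested genes. Lrp1 was at 394.0, 261.5 and 379.6 CPM in donors and 575, 417 and 586 CPM in acceptors (log2 fold change -0.62, SE 0.17, edgeR adjusted p = 0.0269), and Scarb1 at 46.4, 40.7 and 27.0 CPM against 58.8, 61.3 and 62.9 CPM (-0.75, SE 0.21, adjusted p = 0.0270). Of 24 Fc receptor and complement genes, the tyrosine kinase gene Syk was called, at 184, 212 and 220 CPM against 63.9, 83.0 and 95.7 CPM (1.36, SE 0.21, adjusted p = 5.4e-05). The called share of this list, 4.17%, lay near the 4.28% of all tested genes. Trem2, the lipid sensor of disease-associated microglia, was at 512, 300 and 358 CPM against 702, 535 and 759 CPM and was not called (-0.80, SE 0.63, adjusted p = 0.532). The 2 falls were not called without acceptor library 3 (adjusted p = 0.161 for Lrp1 and 0.261 for Scarb1), whereas Syk was.

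The called shares of the lists of microglial states, 5.56 and 6.25%, lay near the 4.28% of all tested genes. Of 36 homeostatic identity genes 2 were called higher, Aif1 and Rhob, and the median was -0.01. Aif1, the calcium-binding protein IBA1, was at 487, 722 and 601 CPM against 210, 575 and 354 CPM (0.78, SE 0.23, edgeR adjusted p = 0.0388), with each donor above its own-numbered acceptor. Cx3cr1, the fractalkine receptor, was at 390, 165 and 181 CPM against 750, 410 and 309 CPM and was not called (-1.002, SE 0.51, adjusted p = 0.289). Of 32 genes of disease-associated microglia 2 were called higher, the fatty acid carrier Fabp5 and Csf1, with a median of 0.08. Fabp5 was at 1148, 1365 and 1920 CPM in donors and 590, 733 and 785 CPM in acceptors (1.04, SE 0.12, adjusted p = 5.9e-07), while Apoe was not called (-0.13, SE 0.31, adjusted p = 0.869). Lower calls appeared in other fits. With only the groups compared, 3 disease-associated genes were called higher and 7 lower, and 2 homeostatic genes higher and 3 lower. With the batch of number 4 left out the counts were 8 and 5, and 6 and 6.

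Adhesion genes held 5 calls, 27.8% of the list against 4.28% of all tested genes. Of 18 integrins and adhesion receptors 4 were called higher, Adgre5, Itgal, Itga9 and Itga4, and Itgb1 was called lower. Itgal, the LFA-1 chain that binds ICAM-1, was at 84.0, 57.1 and 134 CPM in donors and 7.97, 11.4 and 36.3 CPM in acceptors (log2 fold change 2.50, SE 0.48, edgeR adjusted p = 0.0012). Itga9 was at 80.99, 63.4 and 61.2 CPM against 11.6, 17.1 and 25.6 CPM (1.90, SE 0.31, adjusted p = 0.00016), and Itga4 at 64.3, 59.8 and 49.2 CPM against 28.9, 31.1 and 44.2 CPM (0.75, SE 0.20, adjusted p = 0.0197). Donors and acceptors did not overlap in any of these alpha chains. All 4 rises were called without acceptor library 3 and Itgb1 was not.

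Of 15 genes of macrophage fusion and osteoclast-like cells 6 were called higher, Ocstamp, Acp5, Mmp9, Cd44, Cd47 and Bmp8a, with a median of 0.60. The share was 40%, against 2.68% of all tested genes called higher. Acp5, the tartrate-resistant acid phosphatase, was at 5.95, 5.95 and 4.60 CPM in donors and 0.323, 0.644 and 0.887 CPM in acceptors (log2 fold change 3.22, SE 0.48, edgeR adjusted p = 3.7e-05). Cd44, the hyaluronan receptor, was at 415, 429 and 466 CPM against 228.7, 221.3 and 178.3 CPM (1.07, SE 0.17, adjusted p = 9.8e-05). Neither gene overlapped between groups, and acceptor library 1 held 3 counts of Acp5, the floor. Ocstamp, a fusion protein of osteoclasts, had 7.00, 4.07 and 1.87 CPM in donors and 0, 0 and 0.614 CPM in acceptors (adjusted p = 0.0107), whereas the related Dcstamp was not called (-0.38, SE 0.74, adjusted p = 0.837). Of the 6 genes, 4 were called without acceptor library 3.

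Of 51 genes of tunnelling nanotubes and the actin machinery, through which cells can exchange cargo, 3 were called higher and 0 lower, with a median of -0.04. Their share of 5.88% lay near the 4.28% of all tested genes. Tnfaip2, known as M-Sec, a promoter of nanotube formation, was at 464, 433 and 370 CPM in donors and 168, 111 and 254.97 CPM in acceptors (log2 fold change 1.30, SE 0.25, edgeR adjusted p = 0.0011). Baiap2, which bends membranes at filopodia, was at 49.9, 56.4 and 51.5 CPM against 23.3, 33.3 and 35.0 CPM (0.80, SE 0.19, adjusted p = 0.0076), and Ezr, the membrane linker ezrin, at 37.3, 25.1 and 42.3 CPM against 15.4, 19.7 and 15.2 CPM (0.99, SE 0.25, adjusted p = 0.0153). All 3 were higher in every donor than in any acceptor. Ezr was not called without acceptor library 3 (0.79, adjusted p = 0.151).

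Of the metabolic lists, that of glycolysis and the hypoxia response held the most calls. Of its 29 genes 4 were called higher (13.8%, against 2.68% of all tested genes), the glucose transporter Slc2a1, the hexokinase Hk2, the regulator Pfkfb3 and the ER oxidase Ero1l, with log2 fold changes between 0.61 and 0.90. Pfkfb3, at 56.7, 57.0 and 66.6 CPM against 24.1, 32.7 and 41.3 CPM (edgeR adjusted p = 0.0086), was the call that held without acceptor library 3. Of 56 respiratory chain subunits Atp5g3 was called (0.33, SE 0.09, adjusted p = 0.0275) and the median was 0.02. Of 32 cholesterol and fatty acid synthesis genes 0 were called by edgeR, with 6 at an unadjusted p under 0.05, and DESeq2 called 2. Nr1h3, which encodes the oxysterol receptor LXR-alpha, was called among 12 LXR genes, at 32.9, 33.9 and 18.6 CPM in donors and 2.91, 6.12 and 8.12 CPM in acceptors (2.34, SE 0.42, adjusted p = 0.00061). The 11 other genes of that list, which are mostly its known targets, were not called. The called shares were 1.79% of respiratory chain subunits and 8.33% of LXR genes, against 4.28% of all tested genes.

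Glucocorticoid-responsive genes split: Tsc22d3, Per1, Sgk1 and Dusp1 were called higher and Zbtb16 and Mt2 lower, of 15 tested. That was 40% of the list, against 4.28% of all tested genes. Sgk1 and Dusp1 are also called members of the immediate early list. Without acceptor library 3 the counts were 2 higher and 1 lower, and without the block 0 were called. Tsc22d3, the leucine zipper protein GILZ, was at 89.6, 127 and 67.8 CPM in donors and 37.1, 49.5 and 14.9 CPM in acceptors (log2 fold change 1.55, SE 0.23, edgeR adjusted p = 3.8e-05). Zbtb16 was at 0.263, 0.453 and 0.647 CPM against 2.48, 4.35 and 1.57 CPM (-2.45, SE 0.70, adjusted p = 0.0353). Of 31 TGF-beta pathway genes Skil, Tgif1 and Bmp8a were called higher (9.68%, against 2.68% of all tested genes). Skil, a repressor of SMAD signalling, was at 81.9, 105 and 103 CPM against 66.6, 58.7 and 39.4 CPM (0.80, SE 0.23, adjusted p = 0.0329, and 0.263 without acceptor library 3). Among genes of lipid mediators, Pla2g7, an enzyme that degrades platelet-activating factor, was at 113, 107 and 212 CPM against 44.0, 48.7 and 92.1 CPM (1.24, SE 0.17, adjusted p = 1.1e-05).

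**Figure D4:**
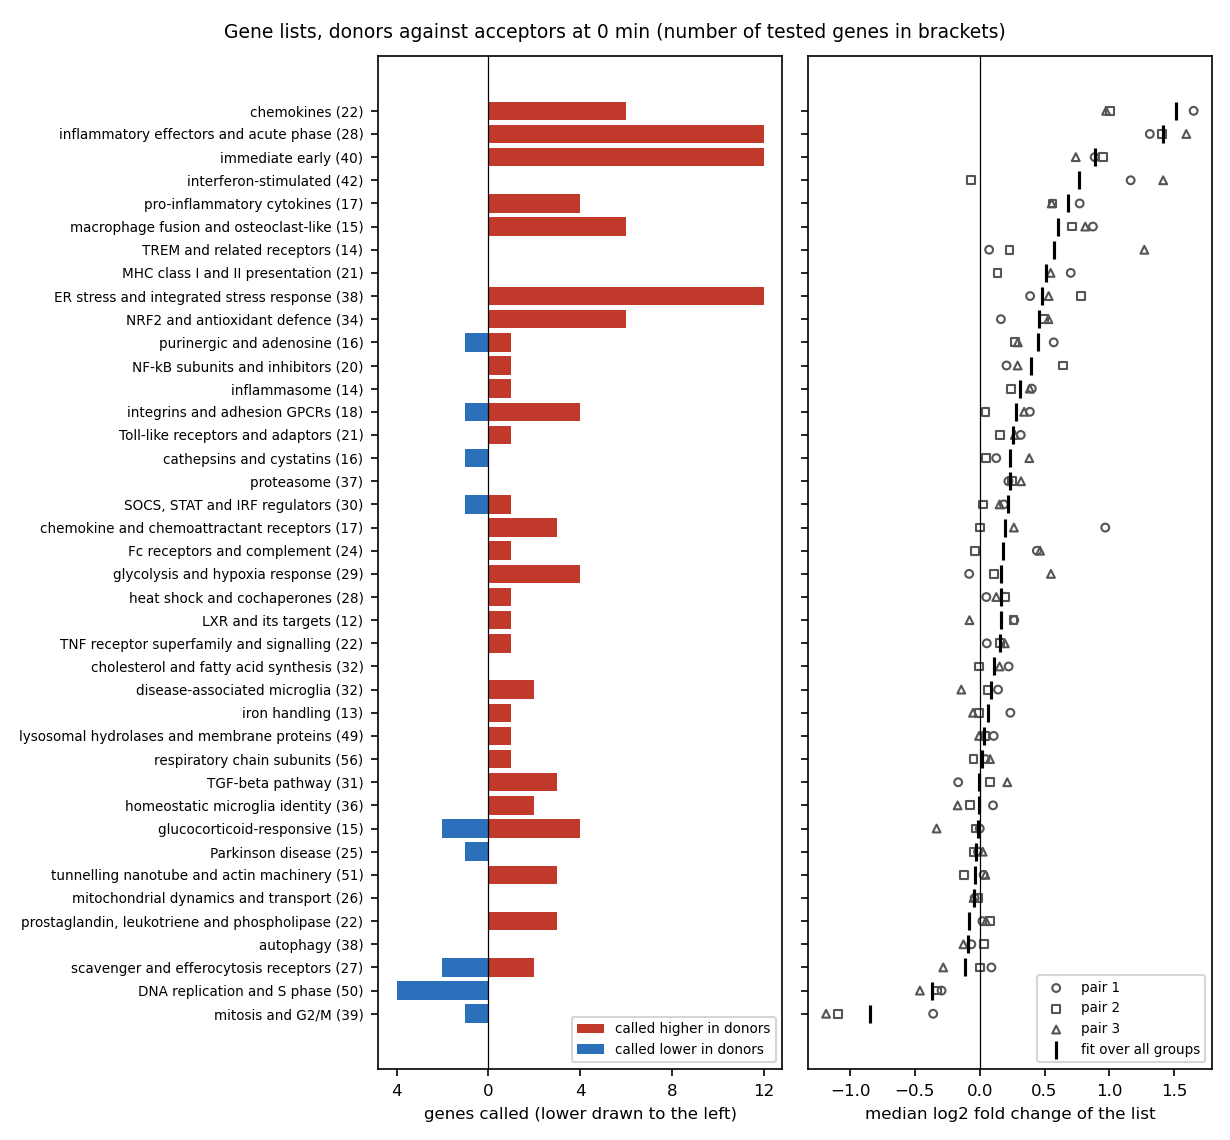
Members of each gene list called higher or lower in donors (left panel, number of genes) and the list's median log2 fold change, donor minus acceptor, with the value of each same-numbered pair (right panel). Effectors, immediate early genes and the ER stress and integrated stress response list each have 12 members called higher, and the interferon-stimulated list has 0 calls with pair 2 apart from the other 2 pairs.

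The called genes of both cell cycle lists were lower in donors. They were 2.56% of the mitosis list and 8% of the replication list, against 1.60% of all tested genes called lower and 4.28% called. The share of the mitosis list thus lay near that of all genes. Outside the lists Wee1, a kinase of the G2/M checkpoint chosen after its values were seen, was called higher (log2 fold change 1.30, SE 0.23, edgeR adjusted p = 0.00038). Of 39 tested mitosis and G2/M genes 38 had negative values, with a median of -0.85. The 1 gene called was Ccna2, the S and G2 phase cyclin, at 21.5, 6.46 and 4.67 CPM in donors and 35.8, 12.9 and 16.9 CPM in acceptors (log2 fold change -1.12, SE 0.30, edgeR adjusted p = 0.0218). The proliferation marker Mki67 was at 31.8, 5.62 and 3.95 CPM against 41.7, 14.7 and 18.8 CPM and was not called (-1.26, SE 0.42, adjusted p = 0.0771). Number 1 was the highest library of both groups: the list summed to 867 CPM in donor library 1 and to 264.7 and 235.7 CPM in the other donors, and to 1021, 490 and 561 CPM in acceptors. Of 50 genes of DNA replication 44 had negative values with a median of -0.36, and 4 were called lower, the polymerase subunits Pola1, Pold1 and Pold2 and the single-strand binding protein Rpa2. Pold1 was at 9.63, 7.89 and 7.40 CPM against 17.2, 13.05 and 14.7 CPM (-0.86, SE 0.22, adjusted p = 0.0150). Without acceptor library 3, 0 genes of either list were called, while the medians were -0.84 and -0.38. DESeq2 called 5 lower in each list, and leaving out the batch of number 4 gave 16 mitosis and 8 replication genes, all lower.

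Among genes with a mean of at least 5 CPM, those with the largest falls were of mixed function. Zfp618, a zinc finger gene, was at 0.963, 0 and 2.73 CPM in donors and 12.6, 1.69 and 15.4 CPM in acceptors (log2 fold change -3.07, SE 0.53, edgeR adjusted p = 0.00029), low in library 2 of both groups. Rasgrp3, an activator of Ras, was at 76.6, 50.9 and 45.3 CPM against 208, 181 and 197 CPM (-1.83, SE 0.46, adjusted p = 0.0150). Tln2, the integrin linker talin 2, was at 6.65, 3.68 and 2.95 CPM against 13.4, 17.7 and 23.8 CPM (-2.19, SE 0.46, adjusted p = 0.0028). Kcnj2, an inwardly rectifying potassium channel, was at 41.3, 21.7 and 20.7 CPM against 93.1, 61.5 and 103 CPM (-1.76, SE 0.38, adjusted p = 0.0042). Calcrl, the receptor of adrenomedullin, was at 12.6, 8.86 and 13.7 CPM against 24.3, 35.7 and 44.0 CPM (-1.56, SE 0.28, adjusted p = 0.00067). Apart from Zfp618 these groups did not overlap. The others named by the rule were Bmyc (-2.09), Efr3b (-1.75), Fam214a (-1.68), the histone deacetylase gene Hdac9 (-1.60), Thsd1 (-1.54), Ddah2 (-1.44) and Zfp41 (-1.42). Zfp618, Calcrl and Zfp41 were called without acceptor library 3. The other 9 were not, with adjusted p-values such as 0.0515 for Tln2, 0.111 for Rasgrp3, 0.103 for Kcnj2 and 0.399 for Efr3b.

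In 18 called genes 1 group was at the floor, with at most 3 counts in every library. Acceptors were at the floor for Spic, Pla1a, Bmp8a, Grasp, Nos2, Cd160, Slfn14 and Sh3d21. Against the floor averaged over the group's libraries, Bmp8a was at least 14.2-fold higher in donors, Nos2, the inducible nitric oxide synthase, at least 9.35-fold, Spic, a transcription factor of iron-recycling macrophages, at least 6.14-fold and Pla1a at least 3.89-fold. Donors were at the floor for Fancb, Gfra1, Aif1l, Mt3, Dusp27, Tcf7l1, Dtna, Id4, Adam12 and Trim9. Fancb, of DNA repair, was at 1.94, 0.967 and 0.955 CPM in acceptors and at least 5.74-fold lower in donors. For Gfra1, Aif1l, Mt3, Tcf7l1, Dtna and Adam12 the acceptor level came mainly from acceptor library 3, the library with the most astrocyte and neuron marker RNA: Aif1l was at 0.431, 0.242 and 3.89 CPM and Tcf7l1 at 1.19, 0.161 and 4.71 CPM.

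The donor and acceptor groups of later times share no library with those at 0 min, so the 564 genes could be looked up there. All comparisons came from a single fit, with the same block and the same estimate of each gene's spread. Same-numbered libraries also have the same passage, so calls shared between comparisons are not independent of each other. With the same edgeR test, 386 of the 564 were called in the same direction at 15 min (68.4% of them and 30.6% of the 1260 genes called then), where 9.57% of all genes were called. At 30 min the number was 393 (69.7%, and 27.8% of 1416 calls, with 10.8% of all genes called). It was 272 at 60 min (48.2%, and 30.8% of 882, with 6.70% called), 216 at 150 min (38.3%, and 31.6% of 684, with 5.19% called) and 94 at 300 min (16.7%, and 51.6% of 182, with 1.38% called). None of the 564 was called in the opposite direction at any of these times. Donors at 60 min and acceptors at 300 min each lack a replicate number that the opposite group has. The calls at 60 and 300 min thus rest on fewer complete pairs than those at 15, 30 and 150 min. How far this lowered the numbers of calls was not tested. In aSyn_Donor against Untreated_Ctrl, where no co-culture took place, 405 of the 564 were called in the same direction (71.8%, and 16.05% of 2524, with 19.2% of all genes called) and 0 in the opposite one.

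The medians over the called genes were nearer 0 at later times. The 353 higher genes had a median log2 fold change of 0.96 at 0 min, where the same values chose them, and of 0.84, 0.75, 0.61, 0.49 and 0.42 at 15, 30, 60, 150 and 300 min, and of 0.83 with aSyn alone. The 211 lower genes had medians of -0.81, then -0.60, -0.61, -0.51, -0.39 and -0.31, and -0.73 with aSyn alone. At 300 min 315 of the 353 and 192 of the 211 still had the sign of 0 min. The difference between the 0 min and 300 min contrasts was called by edgeR for 0 of 13169 genes (892 with an unadjusted p under 0.05), and DESeq2 called 13. Between 0 and 15 min edgeR called 0 genes (339 unadjusted) and DESeq2 0, and between 0 min and aSyn alone 0 (960 unadjusted) and DESeq2 4.

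**Figure D5:**
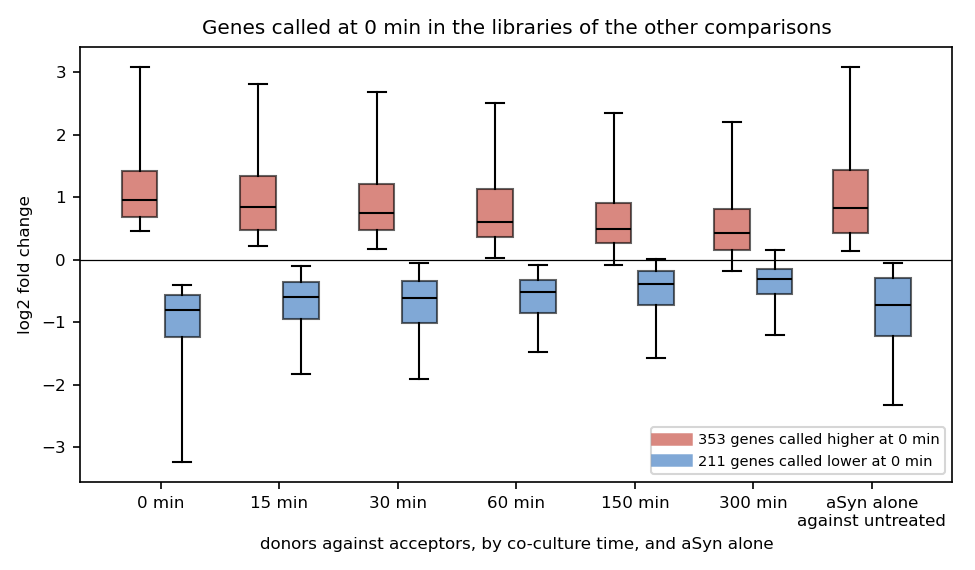
Log2 fold changes (donor minus acceptor, or aSyn-treated minus untreated) of the 353 genes called higher and the 211 called lower at 0 min, in each comparison (boxes give quartiles, whiskers the range from 5 to 95%). Medians of the higher genes go from 0.96 at 0 min to 0.42 at 300 min, and are 0.83 with aSyn alone.

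The number of times at which a gene was called varied. Of the 564, 77 were called in the same direction at all 5 later times, 63 of them higher, and 73 of the 77 also with aSyn alone. Adgre5 had log2 fold changes of 4.12 at 15 min, 3.95 at 60 min, 4.02 at 300 min and 4.77 with aSyn alone. Slc13a3 (3.21 at 300 min), Nr1h3 (2.24), Itgal (2.58), Marco (2.91), Il1rn (2.31), H2-M2 (2.79) and Ocstamp (6.02) were likewise called at every time. By contrast 112 of the 564 were called at 0 of the 5 later times, 55 higher and 57 lower. Some immediate early genes had values near 0 at 300 min: Klf2 was 2.55 at 15 min and -0.32 at 300 min, Klf4 1.74 and 0.07, and Dusp1 0.42 and 0.03. Cxcr4 was 0.83 at 15 min, -0.27 at 60 min and 0.09 at 300 min. The difference between 0 and 300 min was not called by edgeR for these genes (adjusted p = 0.065 for Klf2, 0.122 for Klf4, 0.135 for Cxcr4 and 0.460 for Dusp1). DESeq2 called it for 13 genes, among them Klf2 (a difference of 2.67 in log2 fold change, adjusted p = 0.0020), Cd44 (1.20, adjusted p = 0.0020), Klf4 (2.11, adjusted p = 0.0424), Cxcr4 (1.43, adjusted p = 0.0461) and Csf1 (1.73, adjusted p = 0.0461). Of the 564, 67 were called at no later time and not with aSyn alone, 31 higher and 36 lower.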

How the data were processed

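The authors deposited raw counts per gene symbol for 54 libraries, whole numbers per the file headers, and a normalized signal for the same libraries. STAR, Partek and DESeq2, without versions, and the build mm10 are named per the submitters' processing notes; the annotation, the use of strand and the roles of these tools are not given in the sources used here. Per the labels' protocols, RNA was sequenced near the 3′ end (QuantSeq FWD, 50 bp single reads), and no molecular identifiers are stated, so floors cover counting error only. The deposited signal was checked against the counts: 100% of its values equalled the count over a median-of-ratios size factor (tolerance 0.05), and it was not used further. The table has 0 columns without a sample.

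Tests started from the counts, in edgeR 4.0.16 (R 4.3.3): TMM scaling, filterByExpr by group (minimum count 10), a group-means design over all 14 groups with the replicate number as a block, and the quasi-likelihood F test, adjusted by Benjamini-Hochberg over 13169 genes. Untreated libraries of the same number were summed, which left 52 units. The pairing comes from the numbers in the titles: same-numbered donor and acceptor libraries at 0 min deviated together from their group means (r of 0.199, 0.446 and 0.372 across genes). Different numbers gave -0.343 to -0.026. Deviations from a group mean sum to 0, so values below 0 for different numbers follow from the positive ones and add no support for the pairing. None of the 9 pairs compared (within a group, or of the same number) agreed within sampling noise (chi-square per degree of freedom 27.1 to 107). Number 4, a separate library batch in the labels, has no library at 0 min. In data simulated for this comparison over 13169 genes, the test called 74 of 100 genes changed 2-fold and 100 of 100 changed 4-fold, with 11 false calls among 185. These counts were drawn from the fitted model itself, with replicate effects shared by all groups and changed genes at a mean of at least 5 CPM. They cannot give the rate of false calls where the block does not hold.

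Named genes were the 12 largest rises and 12 largest falls with at least 5 CPM on average and 1 direction in 3 pairs, up to 4 called members with the smallest p of each list, Adgre5, Klf2, Cxcr4 and Skil, and the microglia and astrocyte markers; clone-type gene names were passed over among the largest changes, and some genes the rule takes are not reported here. The comparison, the lists and this rule were chosen with earlier results of these data known. Alternatives were no block, DESeq2 1.42.0, its size factors (RLE), no filter on low counts, the groups compared alone, number 4 left out, each number left out and, chosen after seeing the data, acceptor library 3 left out. Genes were placed by their symbols in GENCODE M21 (mm10).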

Additional observations from a re-analysis of the deposited data

How the results depend on the processing

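At 0 min the call of 564 genes became 33 without the replicate block, 1450 with the library batch of number 4 left out of all groups (824 higher and 626 lower, 562 of the 564 among them), 242 without acceptor library 3 and 173 to 208 when 1 number was left out, of which 164 to 188 were among the 564. It stayed within 1.5 times with RLE scaling (558), no filter on low counts (491), only the groups compared (524, 332 of them shared) and DESeq2 (784, 559 shared). Exposure to aSyn alone had 2524 calls, 329 without the block, 1620 without number 4, 139 with only the groups compared and 928 to 2410 leaving out 1 number, lowest without number 4. At 15 min the 1260 calls became 117 without the block, 195 with only the groups compared and 328 to 1019 leaving out 1 number. At 300 min the 182 calls became 4 without the block, 12 with only the groups compared, 26 to 136 leaving out 1 number and 365 with DESeq2. The difference between the 0 and 300 min contrasts, with 0 calls, had 5 without the batch of number 4 (among them Bhlhe40, Fbxo32, Hilpda and St8sia4), 3 with only the groups compared (Hilpda, Klf2 and Map2k3), 13 with DESeq2 and 0 to 1 leaving out 1 number (1 without number 4). The difference between 0 min and aSyn alone, with 0 calls, had 1 without the batch of number 4 (Trpm4), 4 with DESeq2 (Atg12, Gm5860, Oga and Trpm4) and 0 to 4 leaving out 1 number (Atg12, Mcm3, Oga and Ubxn6, without number 2). The DESeq2 fit had no filter on low counts, and its difference for Gm5860, 39.1 on the log2 scale (SE 5.82), is too extreme to be read as a fold. These genes were named after their values were seen, and the cause of these shifts was not tested. Of the 97 called genes that the rule named, 13 were still called without the block, 41 to 53 leaving out 1 number, 46 without acceptor library 3 and 80 to 97 under the other 5 alternatives, and 0 of these 97 reversed direction. Markers that were not called did cross 0, such as Gja1 (-2.23 to 0.39) and C1qa (-0.09 to 0.29). Genes near the floor of 3 counts limit the depth: a fold against a group at the floor is a lower bound only.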

Other observations

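The 33 genes called with and without the replicate block include several outside the lists. Emp1, a membrane protein, was at 219, 132 and 203 CPM in donors and 88.5, 75.9 and 68.3 CPM in acceptors (log2 fold change 1.22, edgeR adjusted p = 1.8e-06, and 0.0393 without the block). Lmna, which encodes the nuclear lamins A and C, was at 311, 282 and 367 CPM against 147, 168 and 105 CPM (1.19, adjusted p = 0.00026), and Ahnak, a giant scaffold protein, at 344, 276 and 354 CPM against 154, 200 and 172 CPM (0.88, adjusted p = 0.0017). Bhlhe40, a transcription factor of activated immune cells, was at 25.7, 13.1 and 23.4 CPM against 6.46, 2.98 and 4.09 CPM (2.20, adjusted p = 0.00023) and had a value of -0.03 at 300 min. Fbxo32, an atrophy-related ubiquitin ligase, was at 25.7, 23.7 and 16.5 CPM against 8.30, 4.75 and 5.12 CPM (1.88, adjusted p = 6.2e-05), with -0.07 at 300 min. Gpr35, a G protein-coupled receptor, was at 10.9, 23.5 and 11.1 CPM against 3.77, 4.99 and 0.955 CPM (2.25, adjusted p = 6.4e-05). In all 6 genes every donor library was above every acceptor library. The groups did not overlap in 492 of the 564 called genes, so this is usual for a called gene.

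Sorl1, a sorting receptor known from Alzheimer disease genetics, was at 37.8, 35.3 and 30.5 CPM in donors and 12.7, 16.8 and 16.9 CPM in acceptors (log2 fold change 1.15, edgeR adjusted p = 0.0016), and the calcium-dependent kinase gene Camk2d at 90.4, 80.4 and 94.2 CPM against 43.7, 39.8 and 48.2 CPM (1.01, adjusted p = 0.00093). With aSyn alone their values were 0.11 and 0.21. Among the falls called in both fits, Map3k20, a stress-activated kinase gene, was at 19.96, 13.1 and 15.4 CPM against 45.1, 35.8 and 25.1 CPM (-1.11, adjusted p = 1.9e-05), and Crot, an enzyme of peroxisomal fatty acid oxidation, at 13.1, 10.6 and 14.2 CPM against 26.7, 22.6 and 19.3 CPM (-0.85, adjusted p = 0.0034). These genes were picked after their values had been seen.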
